A study of Mus musculus with 15 samples.

Results

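The receptors for glutamate and GABA, the main excitatory and inhibitory transmitters of the brain, were followed here gene by gene in RNA labelled whole brain. Members were the genes whose symbol is Gria, Grik, Grin, Grid or Grm with a number, or begins with Gabr or Gabbr, and that had at least 10 counts over all mice. Of 43629 genes listed, 47 had such a symbol and 44 reached 10 counts, 25 for glutamate and 19 for GABA receptors. Just outside the count minimum were Gabrr3 with 6 counts, Gabrp with 3 and Grm6 with 1, and just inside were Gabrr1 with 44, Grin3b with 82 and Gabra6 with 116.

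RNA was sequenced from the brains of 15 wildtype male C57BL/6J mice, 1 library per mouse. The mice were 3 or 24 months old by the labels and were given food ad libitum (AL) or by intermittent fasting (IF, which the study describes as every-other-day feeding). By the study, IF was short-term in young mice and almost lifelong in old mice. Age and length of IF thus cannot be told apart between the IF groups, and a diet difference averaged over the ages mixes both lengths. The groups were 3M_AL, 24M_AL and 24M_IF with 4 mice each and 3M_IF with 3 mice. The comparisons address how age and diet relate to expression in the brain.

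Ionotropic glutamate receptors are ion channels built of 4 subunits. AMPA receptors (Gria) carry most fast excitation, NMDA receptors (Grin) combine the obligatory GluN1 with GluN2 or GluN3 subunits and gate calcium entry, and kainate receptors (Grik) tune transmission on both sides of the synapse. Metabotropic glutamate receptors (Grm) and the GABA-B receptor (Gabbr1 with Gabbr2) signal through G proteins, while GABA-A receptors (Gabr) are chloride channels, in most cases of alpha, beta and gamma subunits.

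The total count per mouse ran from 5198748 to 13610729. Counts were scaled to CPM (the count relative to library size, with TMM factors), and levels are compared between genes only as CPM per kilobase (kb) of annotated exon. The third 3M_AL library stood apart, with the largest total but 17280 genes detected against 19054 to 20880 in the others, and the fourth 24M_AL library held pituitary markers at a summed 1032 CPM against at most 7.35 in the other mice. Neuronal markers (Rbfox3, Snap25, Syt1, Map2 and Tubb3) were high in every library, at a summed 6861 to 8753 CPM. The defining cerebellar granule cell markers Cbln3 and Fat2 were at or under 1.67 CPM in 13 of 15 libraries that are labelled whole brain, and the Purkinje cell marker Pcp2 lay between 3.11 and 6.62 CPM. The other genes of both lists, such as Zic1 and Calb1, which are also made outside the cerebellum, were present in every library, so that the 5 granule cell markers summed to between 66.02 and 131.7 CPM and the 4 Purkinje cell markers to between 170.1 and 225.5 CPM. In bulk tissue, fewer cells of a type and less RNA per cell cannot be told apart. How much cerebellar tissue each library held was not tested, so levels of cerebellar subunits hold for these libraries only.

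The lowest member was Gabrr1, at 0.129 ± 0.113 CPM per kb (SD, n = 15), and Gabbr1, among the highest, was at 99.9 ± 4.93. Of the 43 pairs of neighbours in the order of levels, 39 had overlapping ranges over the 15 mice. Grm7 and Grik2 were a pair of neighbours whose ranges did not overlap. The order is thus a ranking of bands more than of single genes.

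**Figure D1:**
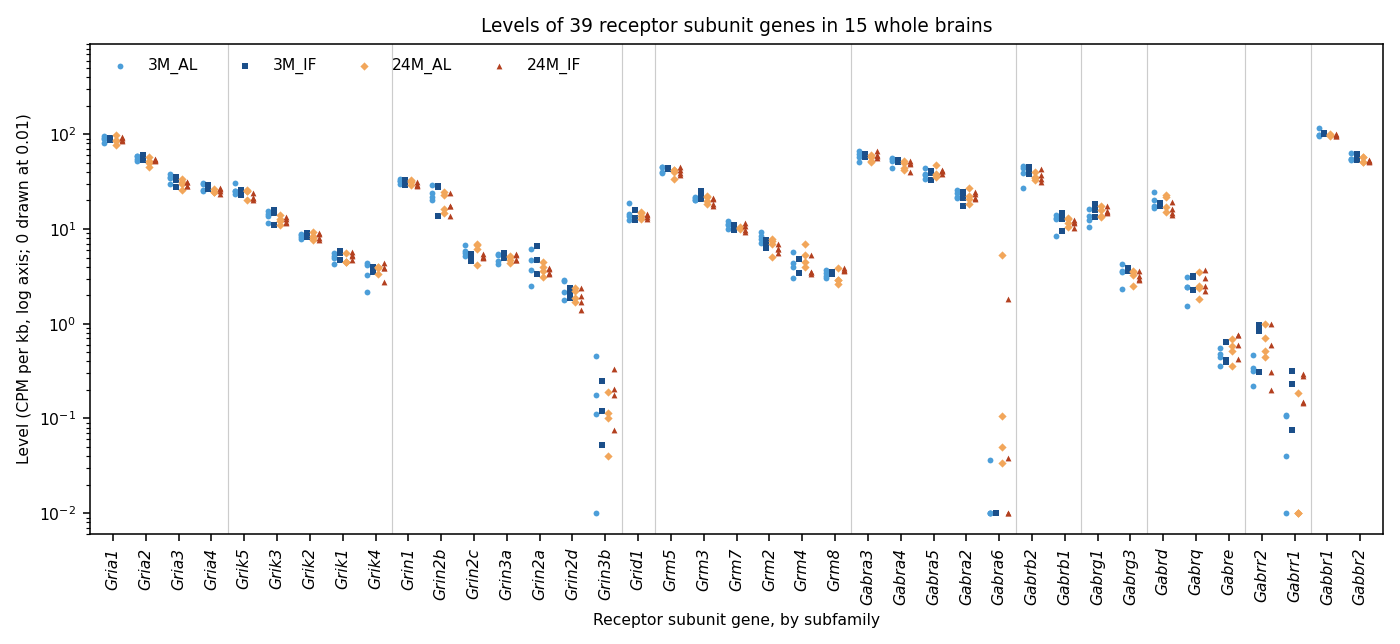
Level of each of 39 members in each mouse, in CPM per kb on a log axis, with members grouped by subfamily along the horizontal axis and 1 point per mouse coloured by group (0 is drawn at 0.01). Points of the 4 groups lie on top of each other for nearly all of them, and Gabra6 stands out with 2 of its mice far above the rest.

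Among the AMPA subunits, Gria1 was at 88.8 ± 5.49 CPM per kb and Gria2, whose edited form makes the channel impermeable to calcium, at 54.4 ± 4.18. Gria3 followed at 31.6 ± 3.28 and Gria4, the subunit of many fast-spiking interneurons, at 26.6 ± 2.09. As a share of their summed length-scaled level, Gria1 held 44.1% ± 1.87 and Gria2 27.02% ± 0.976 (SD, n = 15). These shares hardly moved between the groups, and the Gria1 share was 43.1% ± 1.77 in 3M_AL, 43.4% ± 1.98 in 3M_IF, 44.8% ± 2.19 in 24M_AL and 44.96% ± 1.498 in 24M_IF.

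By their means over the mice, kainate receptor subunits were lower than the AMPA subunits, though the ranges of Grik5 and Gria4 overlapped. Grik5, a high-affinity subunit that needs a partner to form channels, led at 24.1 ± 2.74 CPM per kb, ahead of Grik3 at 13.1 ± 1.55 and Grik2 at 8.41 ± 0.557. Grik1 was at 5.07 ± 0.514 and Grik4, the other high-affinity subunit, at 3.68 ± 0.596. The deposited model of Grik1 has 3137 bases and a later annotation (GENCODE M21) 6721, so any reads outside the shorter model were not counted. Of the delta receptors, which act as synaptic organizers bound by cerebellins, Grid1 was at 14.1 ± 1.66.

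The obligatory NMDA receptor subunit Grin1 was at 30.9 ± 1.70 CPM per kb. Grin2b, the GluN2 subunit of early development and of the adult forebrain, was at 21.1 ± 5.34, Grin2c at 5.54 ± 0.838, Grin2a at 4.08 ± 1.09 and Grin2d at 2.11 ± 0.418. Grin3a, a subunit that lowers calcium flow, was at 5.01 ± 0.434, while its relative Grin3b, a subunit of motor neurons, had 0 to 20 counts per mouse. Grin2b held 63.6% ± 5.42 of the summed GluN2 level and Grin2a 12.4% ± 1.75 (SD, n = 15). The Grin2a share rests on a short gene model, since the deposited exon length of Grin2a is 5296 bases and the later annotation gives 17933. The ratio of Grin2a to Grin2b was 0.175 ± 0.0382 in 3M_AL, 0.213 ± 0.0398 in 3M_IF, 0.199 ± 0.0347 in 24M_AL and 0.204 ± 0.0365 in 24M_IF, with overlapping ranges.

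Among metabotropic receptors, the group I receptor Grm5 was the highest at 41.4 ± 3.25 CPM per kb. Grm3, abundant in astrocytes, was at 20.9 ± 1.98 and the presynaptic Grm7 at 10.5 ± 0.746. Lower still were the presynaptic receptors Grm2 at 7.04 ± 1.10, Grm4 at 4.43 ± 1.06 and Grm8 at 3.38 ± 0.378. Grm6, the receptor of retinal bipolar cells, had a single count in all 15 mice together.

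GABA-A receptor genes showed the widest spread of levels. Of the alpha subunits, Gabra3 was at 58.6 ± 4.62 CPM per kb, Gabra4 at 49.5 ± 4.85, Gabra5, an extrasynaptic subunit of the hippocampus, at 39.0 ± 3.68, and Gabra2 at 22.3 ± 2.57. The beta subunits, which every classical receptor contains, included Gabrb2 at 37.8 ± 5.49 and Gabrb1 at 11.97 ± 1.72. Of the gamma subunits, Gabrg1 was at 14.9 ± 2.11 and Gabrg3 at 3.36 ± 0.516.
The extrasynaptic Gabrd was at 18.3 ± 3.02 and Gabrq at 2.65 ± 0.606. Gabre, at 0.532 ± 0.137, and the rho subunits Gabrr2, at 0.550 ± 0.288, and Gabrr1, the main rho subunit of the retina, lay near the bottom. Both GABA-B subunits were high, with Gabbr1, which binds the ligand, at 99.9 ± 4.93 and Gabbr2, which couples to the G protein, at 55.2 ± 3.90. The deposited models of Gabra2 (2392 bases) and Gabrb1 (3089 bases) are also much shorter than the later ones (7640 and 13838 bases), so their levels carry the same limit as those of Grik1 and Grin2a.

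**Figure D2:**
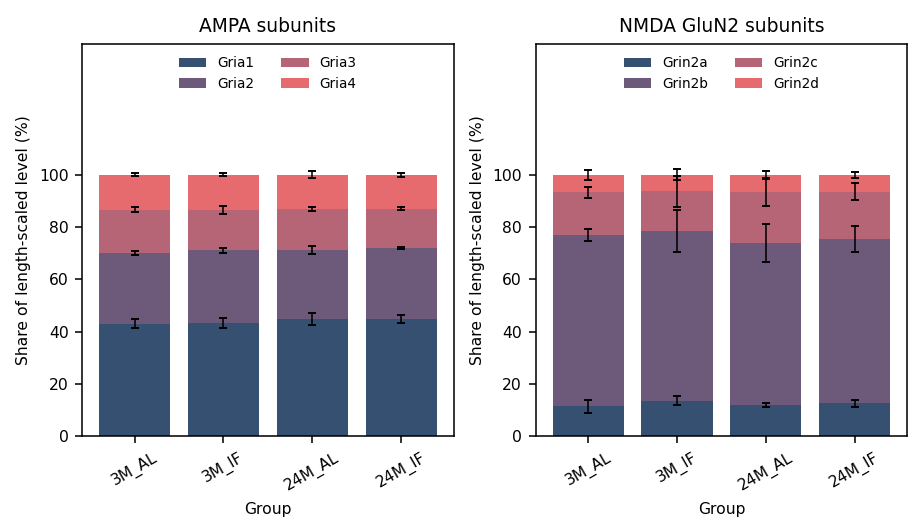
Mean share of the summed length-scaled level, in percent, held by each AMPA subunit and each NMDA GluN2 subunit in the 4 groups, with error bars for the SD over mice (n = 4, and 3 for 3M_IF). Each subunit's segment has about the same height in the 4 groups, and the error bars are widest for Grin2b and Grin2c.

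Most GABA-A genes sit in clusters, and neighbours within a cluster differed widely in level (positions on GRCm38). On chromosome 11, Gabra6 (42306437 to 42321072) at 0.494 ± 1.41 CPM per kb lies beside Gabrb2 (42419757 to 42629028) at 37.8. On chromosome 7, Gabrg3 (56716465 to 57387188) at 3.36 lies beside Gabra5 (57407690 to 57510009) at 39.0. On the X chromosome, Gabra3 (72432681 to 72656848) at 58.6 lies between Gabre (72255999 to 72274803) at 0.532 and Gabrq (72825178 to 72842602) at 2.65. The cluster of chromosome 5, with Gabrg1, Gabra2, Gabra4 and Gabrb1, was more even, from 11.97 to 49.5 CPM per kb. Each of these genes has a deposited model shorter than the later one, which limits that comparison. For Gabrg1 the lengths are 4771 and 7869 bases, and for Gabra4 4123 and 6083.

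Promoter sequence was at hand for 29 of the 44 members (RefSeq, GRCm38.p6, 250 bases before to 50 after the gene start). The CG dinucleotide was counted on the printed strand (a CG reads the same on both strands). Of the 5 members under 1 CPM per kb, 4 had fewer than 10 CG dinucleotides in these 300 bases, and of the 24 members at or above 1 CPM per kb, 3 had, beside 56.5% of all 32851 promoters in the table. The median was 3 in the first set, 17.5 in the second and 7 over all promoters. The cut at 1 CPM per kb was set with the levels in view, no test was made, and CG content is a property of the sequence that these data do not measure. Promoters are shown, of the abundant CG-rich Gabbr1 (chr17:37045716-37046015, plus strand, 18 CG), of the nearly silent CG-poor Gabra6 (chr11:42321023-42321322, minus strand, 2 CG) and of Gabra3 (chrX:72656758-72657057, minus strand, 0 CG), which breaks the pattern by its high level. Gabre (24 CG, 0.532 CPM per kb), Gabrg1 (3 CG, 14.9) and Gabrb1 (9 CG, 11.97) also lay outside that pattern. Gabra6 reached 5.32 CPM per kb in the third 24M_AL mouse. The promoter used for Grin2d lies 4247 bases from the gene start of the deposited model. Capitals mark each CG.
Gabbr1: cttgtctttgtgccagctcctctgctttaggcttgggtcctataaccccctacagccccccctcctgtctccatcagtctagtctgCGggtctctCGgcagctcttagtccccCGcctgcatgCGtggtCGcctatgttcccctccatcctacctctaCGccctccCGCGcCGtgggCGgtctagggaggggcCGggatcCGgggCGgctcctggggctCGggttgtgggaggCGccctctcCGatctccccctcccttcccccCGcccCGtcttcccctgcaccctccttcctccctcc
Gabra6: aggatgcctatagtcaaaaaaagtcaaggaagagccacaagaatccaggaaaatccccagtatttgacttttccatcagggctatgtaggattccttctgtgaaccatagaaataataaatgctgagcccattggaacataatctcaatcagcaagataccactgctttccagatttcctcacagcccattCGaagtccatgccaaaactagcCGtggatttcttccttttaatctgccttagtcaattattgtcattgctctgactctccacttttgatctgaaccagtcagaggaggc
Gabra3: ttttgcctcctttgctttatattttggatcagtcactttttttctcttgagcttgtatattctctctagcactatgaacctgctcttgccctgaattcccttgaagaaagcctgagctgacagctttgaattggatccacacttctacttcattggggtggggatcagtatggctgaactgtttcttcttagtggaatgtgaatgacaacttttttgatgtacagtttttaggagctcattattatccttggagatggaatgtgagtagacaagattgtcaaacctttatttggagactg

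Gabra6, the alpha subunit of cerebellar granule cells, was the member whose mice differed most. It had 70 counts (13.2 CPM) in the third 24M_AL mouse and 40 counts (4.55 CPM) in the second 24M_IF mouse. Of the other 13 mice, 8 had no count, 4 had 1 count and 1 had 2. A count of 0 allows up to 3 counts, which is 0.227 to 0.567 CPM in these libraries (counting error only). Of 5 granule cell markers, the defining Cbln3 and Fat2 were highest in the same mice. Cbln3 had 149 and 89 counts (28.2 and 10.1 CPM) in those libraries and 0 to 12 counts in the others, and Fat2 37 and 31 counts (6.999 and 3.53 CPM) against 0 to 20. Neurod1 also had its highest values there, at 17.02 and 14.8 CPM against 7.93 to 14.2 in the others. Zic1 and Zic2 did not follow Gabra6, with 61.5 and 50.1 CPM (range over all mice 49.1 to 91.9) and 17.97 and 11.5 CPM (7.63 to 18.9), and both were highest in the third 3M_IF mouse, which had no count of Gabra6. Gabra6 did not pass the filter on low counts and was not tested in the fit of all 15 mice. Both high libraries are of old mice, but 6 of 8 old mice had at most 2 counts, and the part of cerebellar tissue in this difference was not tested.

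**Figure D3:**
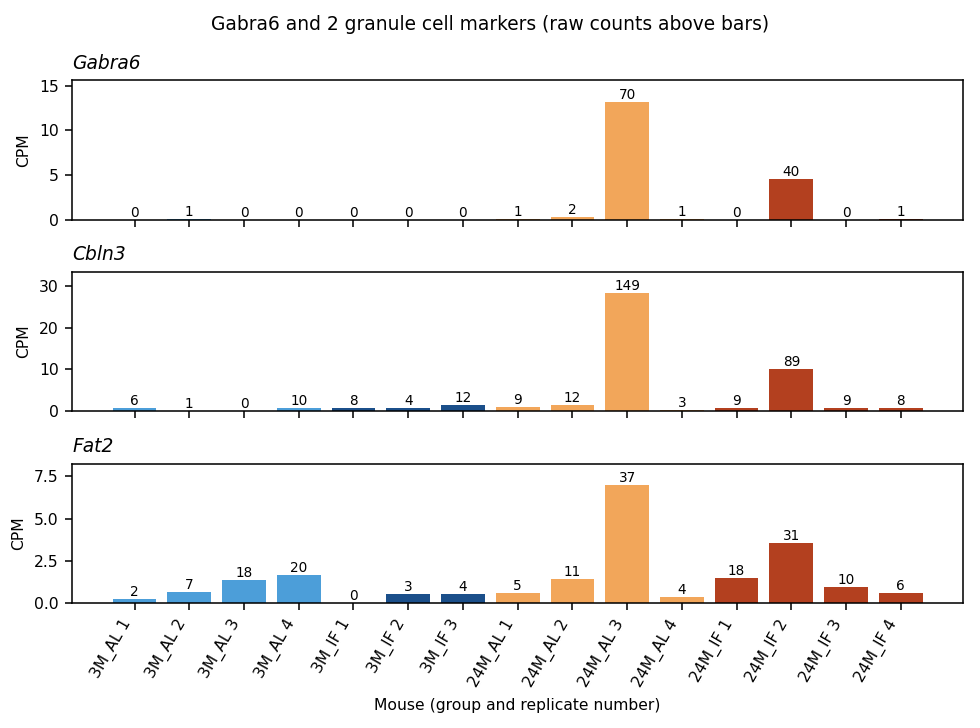
Gabra6 and the granule cell markers Cbln3 and Fat2 in each mouse, as CPM (bars, from 0) with the raw count above each bar. The third 24M_AL and the second 24M_IF mouse are the highest for all 3 genes, at 70 and 40 counts of Gabra6.

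The quasi-likelihood test of edgeR was run in 1 fit of the 4 groups over 15864 genes, with Benjamini-Hochberg adjustment over all of them and a threshold of 0.1. Of the 44 members, 41 passed the filter on low counts, and Gabra6, Grin3b and Gabrr1 did not. With age, no tested member passed in AL mice, in IF mice or in the mean of both diets, where 1.09%, 0.29% and 2.3% of all genes passed. limma voom also called 0 members for the mean age difference and DESeq2 called 1, where 487 and 491 of 15864 genes passed. The edgeR count was also 0 without the third 3M_AL mouse, without the fourth 24M_AL mouse, and without both mice in which Gabra6 was high. At an unadjusted p under 0.05, 3 members were below the threshold in AL mice, 2 in IF mice and 10 in the mean of both diets, against 9.52%, 5.74% and 11.7% of all genes.

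All 10 members at an unadjusted p under 0.05 for the mean age difference had lower estimates at 24 months, a direction in which 5.77% of all genes met that limit. Among them were the AMPA subunits Gria2, Gria3 and Gria4, the kainate subunit Grik5, the NMDA subunit Grin2b, Grm2, the GABA-A subunit Gabra4, and Gabbr2. Over all 41 tested members, 32 estimates were below 0, as were 51.5% of those of all genes. The median log2 difference between 24 and 3 months was -0.06 over the members and -0.0049 over all genes. Per mouse, the members' median deviation on the log2 scale ran from -0.03 to 0.12 in young and -0.12 to 0.03 in old mice. The lowest, at -0.12 and -0.09, were the third 24M_AL and second 24M_IF mouse, in which Gabra6 was high. Members measured in the same mouse are not independent. By receptor type, 21 of 24 glutamate receptor members (median -0.08) and 11 of 17 GABA receptor members (median -0.06) had estimates below 0. The median over the members was -0.06 without the third 3M_AL mouse too, and -0.09 with sequencing lane as a covariate.

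The AMPA subunits Gria2 and Gria4 were among the members with the smallest p values. Gria4 was at 185, 159.8, 188 and 155 CPM in 3M_AL, 164, 178 and 173 in 3M_IF, 152, 151, 162 and 152 in 24M_AL and 160.9, 156, 167 and 145 in 24M_IF. The groups overlapped at each diet. Its mean log2 age difference was -0.14 (SE 0.05, adjusted p = 0.266 by edgeR), and that of Gria2 was -0.13 (SE 0.05, adjusted p = 0.317 by edgeR). Gria1, the most abundant AMPA subunit, was at -0.04 (95% interval -0.15 to 0.07). The interval of each AMPA subunit lay within a 1.5-fold change in either direction. Without both mice in which Gabra6 was high, the mean log2 age difference of Gria2 was -0.09 (adjusted p = 0.678 by edgeR).

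Grin2b had the lowest estimate of all members in the mean of both diets, while in IF mice Grin2a was lower (-0.44 against -0.36), and it had wide scatter within groups. It was at 725, 501, 533 and 595 CPM in 3M_AL, 709, 690 and 342 in 3M_IF, 570.1, 611, 363 and 399 in 24M_AL, and 437, 344, 593 and 435 in 24M_IF. The lowest value of all was in a young mouse, the third of 3M_IF, and the groups overlapped at each diet. The mean log2 age difference was -0.32 (SE 0.15, 95% interval -0.62 to -0.01), with an adjusted p of 0.395 by edgeR. Without the third 3M_IF mouse it was -0.45 with an adjusted p of 0.0918 by edgeR, past the threshold. Without both mice in which Gabra6 was high, which ranked 13 and 14 of 15 for Grin2b, it was -0.20 with an adjusted p of 0.752 by edgeR. The coefficient of variation between mice that edgeR estimated for Grin2b was 0.197, which is 2.30 times the trend for genes of its abundance, and the only other member over 1.5 times its trend was Grin2a, at 1.62 times.

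Grin2b varied together with other long transcripts. An index was formed, after the data had been seen, as the median deviation in log2 CPM of the 516 tested genes of at least 12000 exonic bases that are no members. It ran from -0.16 to 0.16 over the mice. The first 3M_AL and the first and second 3M_IF mouse were the highest 3 of the 15 both in this index and in Grin2b. Grin2a, at 13.2 to 34.7 CPM, had the first 3M_IF and first 3M_AL mouse as its highest and the second 3M_AL mouse, lowest in the index, as its lowest. With the index as a covariate, the mean log2 age difference was -0.15 for Grin2b (adjusted p = 0.471 by edgeR), and the members' median was -0.07. Over all tested genes the median age difference was 0.02 for exonic lengths up to 2000 bases, where there were 0 members, and -0.06 above 12000 bases. The members' median was below that of all genes in each length class that held members. It was -0.05 against 0.01 from 2000 to 4000 bases (10 members) and -0.14 against -0.06 above 12000 bases (4 members). The part of RNA quality in these differences was not tested.

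**Figure D4:**
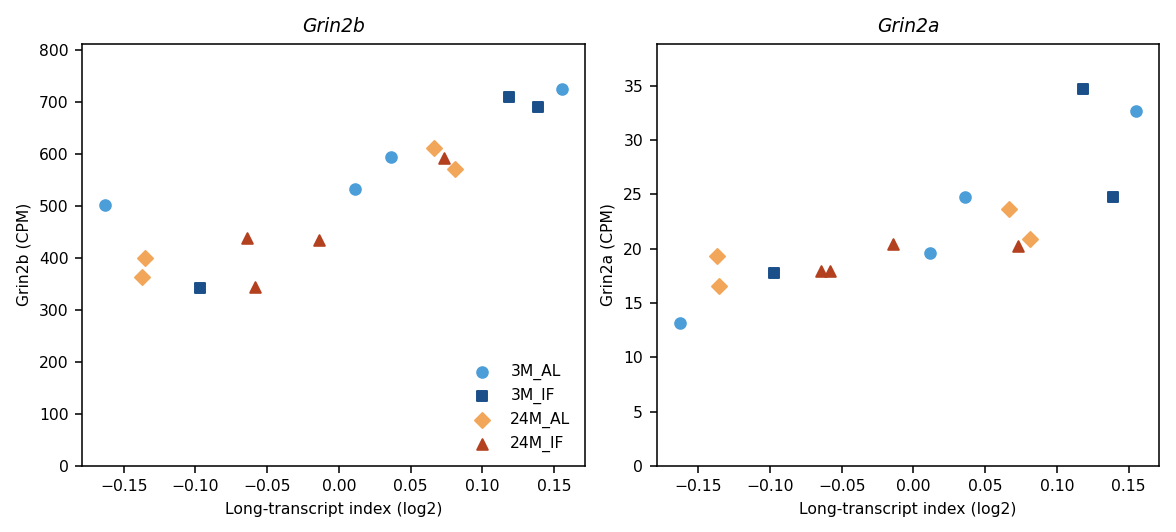
Grin2b (left) and Grin2a (right) in CPM against the long-transcript index (log2, median deviation of 516 long genes that are no members), 1 point per mouse and coloured by group. Grin2b and Grin2a tend upward with the index, the second 3M_AL mouse being in the middle for Grin2b (501 CPM, rank 9 of 15) at the lowest index, and the 3 highest Grin2b values belong to the 3 mice with the highest index.

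Other members with small p values are given by their estimates. Grm2, a presynaptic autoreceptor, was at 23.6, 26.0, 31.0 and 27.7 CPM in 3M_AL, 20.8, 23.4 and 25.2 in 3M_IF, 16.8, 25.9, 24.6 and 23.3 in 24M_AL and 23.1, 20.4, 20.3 and 18.7 in 24M_IF, so the ages overlapped at each diet. Its mean log2 age difference was -0.22 (SE 0.10, adjusted p = 0.367 by edgeR). For Grik5 it was -0.15 (SE 0.07, adjusted p = 0.393 by edgeR). Members that led their subfamily by level were at -0.11 for Grm5, -0.06 for Gabbr1, -0.05 for Grin1 and -0.04 for Grid1, with adjusted p values of 0.472 to 0.902 by edgeR. The Grid1 estimate was above 0 without the third 3M_AL mouse (0.04) and without the third 3M_IF mouse (0.02).

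**Figure D5:**
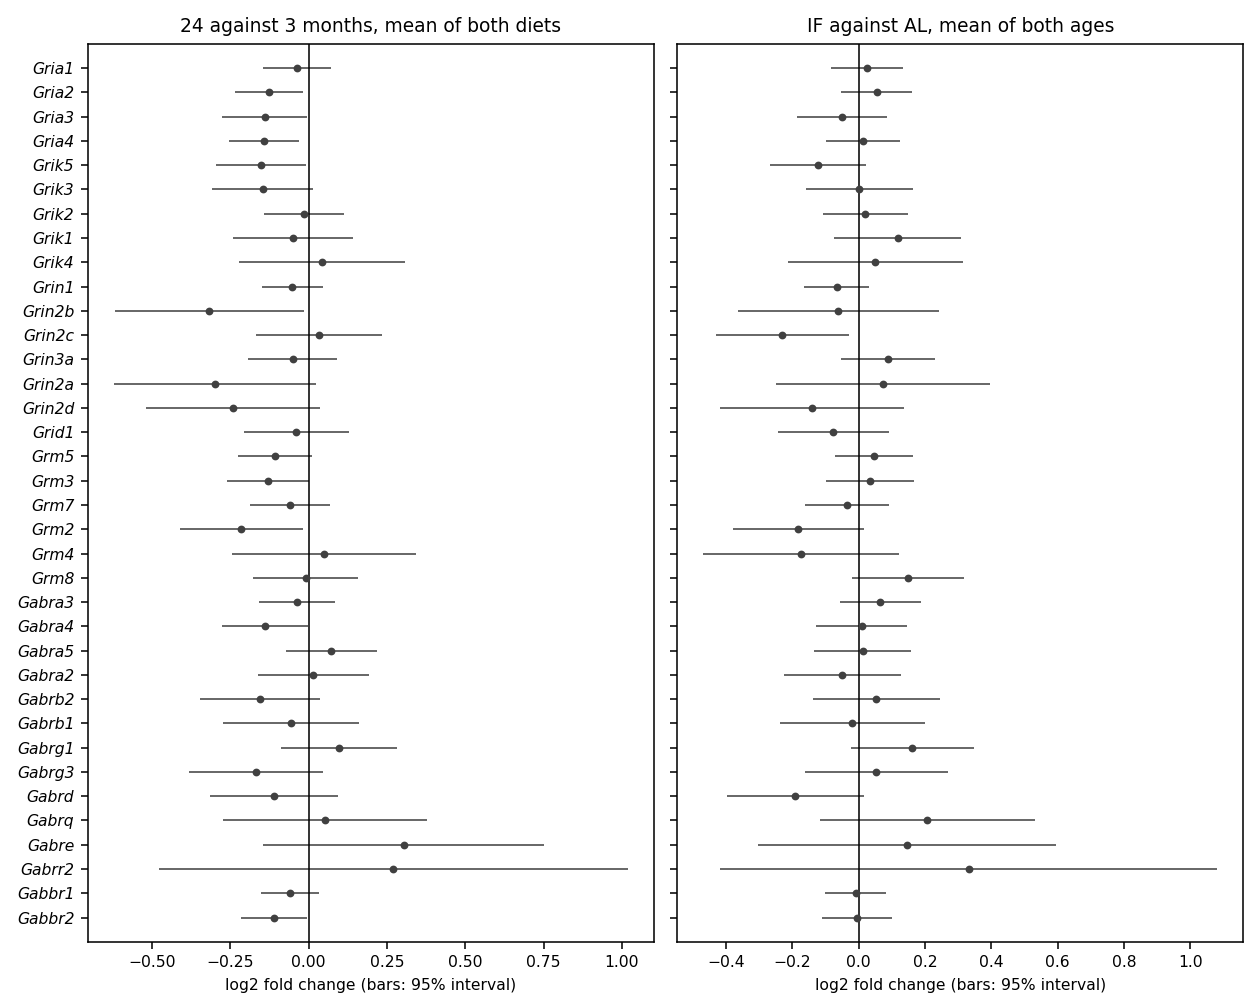
Estimated log2 fold change of each of 36 tested members between 24 and 3 months (left, mean of both diets) and between IF and AL (right, mean of both ages), with bars for the 95% interval of edgeR's fit. On the left 27 of 36 points lie below 0 and on the right 15 of 36, and the longest bars belong to the low-count members Gabrr2 and Gabre.

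Within single diets the groups rarely separated. In AL mice 0 members had non-overlapping ages, against 4.56% of all genes. In IF mice 6 members had, which is 14.6% of those tested against 9.04% of all genes. Among them, Gabbr1, Gabbr2 and Gabrg3 were lower in every 24M_IF mouse than in every 3M_IF mouse, and Grm8 was higher, at 28.3 to 30.1 against 26.2 to 27.6 CPM. In IF mice the smallest p belonged to Grm3, the astrocytic receptor, at a log2 difference of -0.25 (SE 0.09, adjusted p = 0.726 by edgeR). Gabbr2 (-0.15), Grin2a (-0.44) and Grik5 (-0.18) were also among the 6 smallest, with adjusted p values of 0.893 to 0.931 by edgeR. Without the first 3M_IF mouse, Grin2a was at -0.14 and Gabbr2 at -0.09. In AL mice, Gria3 (-0.18, SE 0.09, adjusted p = 0.538 by edgeR) and the low-count Gabrr2 (0.97, SE 0.50, adjusted p = 0.553 by edgeR, 5 to 22 counts per mouse) were among the 6 smallest p values, with Gria4 at -0.16, Grm2 at -0.27 and Gria2 at -0.14. Without the third 24M_AL mouse Gria2 was at -0.08 and Gria3 at -0.11, and without the first 24M_AL mouse Grm2 was at -0.15. Within lanes, the median age difference of the members was below 0 in each of the 3 lanes for AL mice (-0.03, -0.16 and -0.07, with 1 or 2 mice per side) and in both lanes that held IF mice of both ages (-0.05 and -0.12). In lane 2 (-0.16 and -0.12), the only 3M_AL mouse was the third, whose library stood apart. The only 24M_IF mouse of that lane was the second, which was high in Gabra6. In lane 3 the only 24M_AL mouse was the fourth, whose library held pituitary markers. Medians over all genes within lanes are not given here.

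With diet, no member passed in young mice, in old mice or in the mean of both ages, where 0% of all genes passed in each case, and DESeq2 and limma voom also called 0 members. At an unadjusted p under 0.05, 0 members were below the limit in young mice (4.14% of all genes), 1 in old mice (2.58%) and 1 in the mean (4.51%). The median log2 difference of the members between IF and AL was 0.02 at 3 months, -0.01 at 24 months and 0.02 in the mean. The 95% interval lay within a 1.5-fold change for 39 of 41 members in the mean, and Gabre and Gabrr2, both with few counts, were the exceptions. At each single age it did for 37 of 41. Beside Gabre and Gabrr2, the exceptions were Gabrq and Grin2a at 3 months and Gabrq and Grm4 at 24 months. No member separated the diets without overlap at 3 months (4.45% of all genes) or at 24 months (2.59%).

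Grin2c, the GluN2 subunit of astrocytes and cerebellum, had the smallest p for the mean diet difference. It was at 29.3, 28.3, 26.1 and 34.5 CPM in 3M_AL, 23.4, 24.8 and 27.7 in 3M_IF, 21.1, 34.4, 35.0 and 31.3 in 24M_AL and 25.3, 27.3, 25.6 and 24.8 in 24M_IF. At 3 months 2 of the 3 IF mice were below every AL mouse, and at 24 months the IF mice lay inside the span of the AL mice. The log2 difference was -0.23 (SE 0.10, adjusted p = 0.983 by edgeR). Of the others near it, Gabrd (-0.19), Grm2 (-0.18) and Grik5 (-0.12) had lower and Gabrg1 (0.16), a subunit also made by glia, and Grm8 (0.15) higher estimates in IF mice, each with an adjusted p of 0.983 by edgeR. In young mice the smallest p belonged to Gabrg1, at 77.4, 59.6, 49.9 and 65.8 CPM in 3M_AL and 63.8, 76.3 and 87.4 in 3M_IF (log2 difference 0.27, SE 0.13, adjusted p = 0.996 by edgeR). After it came Gabrr2 (1.03), Grm2 (-0.23), Grm3 (0.15) and Grin2c (-0.23), none of which passed. Single mice moved these values, with Gabrg1 at 0.15 without the third 3M_IF mouse, Grm3 at 0.09 without the first 3M_IF mouse and Grin2c at -0.14 without the fourth 3M_AL mouse. In old mice it belonged to the presynaptic receptor Grm8, which was at 22.5, 30.3, 20.6 and 22.7 CPM in 24M_AL and 28.8, 28.7, 30.1 and 28.3 in 24M_IF (log2 difference 0.27, SE 0.11, unadjusted p = 0.0242 by edgeR's test and far from the threshold after adjustment). Of the 24M_AL mice, the second was above all IF mice and the other 3 were below them. Next in old mice were Grm4 (-0.38), Gabrd (-0.25), Grin2c (-0.24), Grik5 (-0.16) and Gabra3 (0.12), none of which passed. Without the third 24M_AL mouse Grm4 was at -0.22 and Gabrd at -0.16, without the first 24M_AL mouse Grin2c was at -0.38, and without the third 24M_IF mouse Gabra3 was at 0.07. The 5 striatal projection neuron markers, Drd1 and Adora2a among them, had estimates below 0 for the mean diet difference, each at an unadjusted p under 0.05 and with 0 past the threshold (median log2 difference -0.28). Their summed level was 479.6 to 653.5 CPM in 3M_AL, 363.3 to 522.5 in 3M_IF, 475.5 to 628.4 in 24M_AL and 366.8 to 591.9 in 24M_IF, so the diets overlapped at each age. The 3 endothelial markers also had estimates below 0 (median -0.19), with 0 past the threshold. The part of either in the receptor estimates was not tested.

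The diet effect was not found to differ for any member between young mice on short-term IF and old mice on almost lifelong IF. No gene passed the interaction test (0%), and 0 members were at an unadjusted p under 0.05 there, against 2.28% of all genes. The smallest p belonged to Gabrr2, at a log2 value of -1.40 (SE 0.72, 95% interval -2.90 to 0.10), then to Grm3 at -0.24 (SE 0.13), and Grm4 (-0.41), Grm8 (0.24) and Gabrg1 (-0.21) came next, none of which passed. Without the third 24M_AL mouse Grm4 was at -0.25, without the second 24M_AL mouse Grm8 was at 0.36, and Gabrg1 ran from -0.33 without the first 3M_AL mouse to -0.09 without the third 3M_IF mouse. The 95% interval reached beyond a 1.5-fold change for 8 members, among them Grin2a, Grin2b, Grm4 and Grik4, and for these a difference of that size is not excluded by the interval.

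The wider synaptic machinery was read from 4 lists, 60 genes in all, each of which was tested. Of 11 genes for vesicular and plasma membrane transporters, 8 for synthesis and breakdown, 19 for auxiliary subunits and 22 for scaffolds and trafficking, 0 passed in any of the 7 comparisons. For the mean age difference, 44 of the 60 estimates were below 0 (51.5% of all genes) with a median of -0.06. The medians were -0.05 for transporters, 0.01 for synthesis and breakdown, -0.05 for auxiliary subunits and -0.10 for scaffolds. At an unadjusted p under 0.05 were 10 of the 60 genes (11.7% of all genes), and the smallest adjusted p values belonged to Lhfpl4 (-0.16, adjusted p = 0.167 by edgeR), which places GABA-A receptors at synapses, Neto2 (-0.21, 0.175), an auxiliary subunit of kainate receptors, and Grip1 (-0.25, 0.18), an AMPA receptor scaffold.

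Markers of other cell types in the same libraries differed with age as follows. Of 5 astrocyte markers, Gfap rose with age by 1.16 on the log2 scale (adjusted p = 2.26e-11 by edgeR), from 131 to 174 CPM over the young to 283 to 403 CPM over the old mice, and the list's summed level ran from 1495 to 1610 CPM in young and 1681 to 1965 in old mice, a sum that holds Gfap itself. The other 4 did not pass, at 0.07 for Aqp4, 0.11 for Aldoc, -0.06 for Aldh1l1 and -0.15 for Gja1. Of 4 oligodendrocyte markers Mbp passed (0.29, adjusted p = 0.0346 by edgeR) and of 4 microglial markers Cx3cr1 (0.23, adjusted p = 0.0728 by edgeR), both higher at 24 months. Among the other oligodendrocyte markers Mobp was at -0.02 and Mog at -0.19, and in IF mice 3 of the 4 estimates were below 0 (median -0.12). None of the 5 neuronal markers passed, with a median log2 age difference of -0.09 and 5 of 5 estimates below 0, and none of the 4 cortical projection neuron markers, with a median of -0.17. Their part in the receptor estimates was not tested.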

How the data were processed

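RNA labelled whole brain was sequenced in 15 mice, 1 library each. Per the file headers and labels, the authors used STAR (version not given in the sources used here) and GRCm38 for alignment, and featureCounts 1.5.0-p1 with the gene models of Ensembl release 79 for counting (mapping quality of at least 5, primary alignments, reverse-stranded). The deposited values are raw counts per gene, without normalization. Symbols were matched to 42462 of 43629 identifiers, and GENCODE M21 gave the later exon lengths.

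Groups were taken from the labels. Counts were scaled by TMM, filtered with filterByExpr (15864 genes) and tested with edgeR 4.0.16 in R 4.3.3 (quasi-likelihood, Benjamini-Hochberg, threshold 0.1) for the age difference in each diet and averaged, the diet difference at each age and averaged, and the interaction. SE was taken as the size of the estimate over the root of its F statistic. The steps were tested on simulated data with known changes. Those changes were larger in size than any member's estimate for the mean age difference. The simulation thus does not show whether smaller changes would be found. Totals of 5198748 to 13610729 counts leave genes of few counts imprecise. The labels do not say that mice came from separate litters or cages, and by the study the mice were housed in groups. The p-values set a group difference against the spread between these mice, taken as independent. The 21 pairs of mice of the same group held no identical files.

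Members are described with fold changes where they passed, or had the 6 smallest p values of a comparison, or led their subfamily by level in the mean age difference. Values of 5 of the 44 members are not reported here, though counts and medians over the members include them. Members and gene lists were chosen with earlier results of these data known. Alternatives were every gene with a count, genes with 10 counts in every mouse, RLE, DESeq2 1.42.0, limma 3.58.1 voom with quality weights, a threshold of 0.05, replicate number as a block, lane, only the 2 groups compared, and each mouse left out. The fits without both mice high in Gabra6 and with the long-transcript index were added after seeing the data.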

Additional observations from a re-analysis of the deposited data

Results flagged for a closer look

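Each of 39 members was searched, in each group of 4 mice, for a mouse far from the other 3 (gap over range above Dixon's 95% critical value). Of 117 groups, 12 met it, where independent normal values would give about 5%. That figure does not hold for counts near 0 or for members that vary together in 1 library. The share over all genes is not given here, so the count is no result about the members. In 3M_AL, Gabbr1 was 897.8 CPM and Gabbr2 373 CPM in the third mouse, the library that stood apart, against 743.1 to 768.5 and 315.9 to 322.8 in the others. In 24M_AL, the second mouse had Gabra5 at 124.4 CPM (others 94.96 to 99.85) and Grik1 at 17.58 CPM (13.93 to 14.19), the third had Gria4 at 161.9 CPM (151.4 to 152.2), and the first had Grik5 at 77.59 CPM (96.19 to 98.93). In 24M_IF, the second mouse had Grin1 at 301.9 CPM (278.5 to 281.2) and Grm4 at 28.11 CPM (17.89 to 18.78). Gabra6 met it in the third 24M_AL mouse at 13.24 CPM (0.0841 to 0.262), in the second 24M_IF mouse at 4.552 CPM (0 to 0.0962) and, through 1 count, in the second 3M_AL mouse at 0.09161 CPM. Gabrr1 met it in the fourth 24M_AL mouse at 0.4203 CPM, where the other 3 had no count. No explanation was tested for these values.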

How the results depend on the processing

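The count of members past the threshold was 0 in all 7 comparisons and moved in 5 of 179 recomputed counts. With no filter beyond 1 count, 2 members passed for age in AL mice, 2 in IF mice and 2 in the mean. In each case these were Grin2b and Gabra6. Of all 26269 genes, 444, 100 and 653 passed there. For diet, 26 genes passed at 3 months, 27 at 24 months and 65 in the mean in this fit. Grin2b in the mean was at log2 -0.31 with adjusted p = 1.37e-05 by edgeR, against 0.395 with the filter. Gabra6 had most of its counts in 1 mouse of each old group (70 in the third 24M_AL and 40 in the second 24M_IF mouse). The cause of these differences from the filtered fit was not tested. DESeq2 called 1 member in the mean age difference, where it called 491 of 15864 genes. Leaving out each mouse in turn gave 0 to 1 called members in the mean age difference and 0 to 0 in the other 6 comparisons. The 1 was Grin2b without the third 3M_IF mouse, where 295 of 16194 genes passed. The members' median age difference stayed between -0.11 and -0.06 in the mean of both diets when each mouse was left out. The sign changed for Gria1 (0.0002058 without both mice high in Gabra6) and for Grid1 (0.04651 with limma voom, and between -0.0764 and 0.0358 with each mouse left out, being above 0 without the third 3M_AL or the third 3M_IF mouse), neither of which passed in any fit. Deviations of same-numbered mice correlated at -0.11 to 0.11 and those of differently numbered mice at -0.15 to 0.20. Correlations this weak cannot show whether mice of the same number had anything in common. With replicate number as a replicate block 0 members passed in each comparison, and the members' median age difference was -0.07. Depth limits the members of few counts: 3 could not be tested, and the 95% interval of Gabre and of Gabrr2 reached beyond a 1.5-fold change in each of the 7 comparisons.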
